A study of Mus musculus with 6 samples.

Results

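The glutathione, thioredoxin and antioxidant enzyme genes of the mouse spinal cord were examined after a crush injury. The set held 40 genes, chosen by name from the 36629 genes listed in the files, and haem oxygenase and NADPH oxidase were not part of it. All 40 passed the filter on low values, which asked for 1 FPKM or more in 3 or more libraries. FPKM, the unit of the deposited values, is fragments scaled to gene length and library size, so levels can be set side by side between genes.

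The samples were pieces of thoracic cord, segments T8 to T12, from C57/BL6 mice given as 3 to 5 weeks old. All were taken at day 3 after surgery. In the sham group (3 libraries) the cord was only exposed by removing the vertebral roof at T9 and T10. In the injured group (SCI, 3 libraries) the exposed cord was also compressed with a vascular clip (closing force 60 g, held 5 seconds). No other genotype, drug or time point was part of the comparison, and sham animals, though given as untreated in one label, carried the same laminectomy. A piece of this length holds tissue beyond the crush itself, with whatever nerve root and membrane stayed attached.

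Cells remove superoxide and peroxides in a chain of reactions. Superoxide dismutases turn superoxide into hydrogen peroxide, which catalase, glutathione peroxidases and peroxiredoxins then reduce. Glutathione and thioredoxin supply the electrons and are recharged by reductases that draw on NADPH. The transcription factor NRF2, encoded by Nfe2l2 and held down by KEAP1, is known to switch on many of these genes, and metallothioneins bind zinc and copper and can scavenge oxidants. In the cord, astrocytes and phagocytes are known as rich sources of several of these proteins.

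The libraries resembled one another more within than between groups on the log2(FPKM + 1) scale (Pearson r 0.987 among sham, 0.971 to 0.985 among SCI, and 0.839 to 0.907 between groups, over the 17435 genes tested). Neuronal, astrocytic and oligodendrocyte markers were all present, as the labelled tissue requires. Injury moved the markers of most cell types. Of 9 microglia and macrophage markers 9 were higher, and their summed level was 177 to 220 FPKM in sham against 1362 to 2223 after injury. Of 6 neutrophil markers 5 were higher (summed 17.6 to 42.2 against 143 to 622), and the sixth, Ly6g, was too low to test and listed at 0 in sham replicates 2 and 3. Of 6 fibroblast and meningeal markers 6 were higher (57.4 to 120 against 255 to 506), as were 5 of 5 endothelial ones (91.1 to 102 against 225 to 265). Of 7 neuronal markers 6 were lower (2806 to 3235 against 960 to 1604), and of 6 oligodendrocyte markers 5 were lower (6828 to 7437 against 4094 to 4992). Of 6 astrocyte markers 3 were higher and 3 lower (1133 to 1415 against 3287 to 3473). Gfap held most of that sum after injury, at 641 ± 116 FPKM in sham and 2781 ± 63.0 in SCI libraries. The sum therefore follows Gfap and not the markers as a group, and Slc1a2 fell from 290 ± 5.08 to 157 ± 10.7. SCI replicate 2 stood apart in blood content: haemoglobin genes took 6.16% of its FPKM, 0.656% and 0.211% of SCI replicates 1 and 3, and 0.109% to 0.126% of the sham libraries. SCI replicate 3 stood apart in ganglion and muscle RNA. The sensory neuron gene Scn10a was at 6.60 FPKM there and listed at 0 in the other 5 libraries, Avil was at 17.30 against at most 0.50, and 4 skeletal muscle markers summed to 332 FPKM against 8.41 to 84.5. Sham replicate 2 had less nerve root and membrane RNA than the other sham libraries, with sensory ganglion and Schwann cell markers summing to 600 FPKM against 1526 and 1572. In whole tissue, fewer cells of a type and less RNA per cell cannot be told apart. The part of these shifts in the results on the antioxidant genes was not tested, apart from values given without SCI replicate 2 or 3.

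Antioxidant genes rose more often than they fell. Of the 40, 19 were higher in the injured cord, 5 were lower and 16 did not pass the threshold, which was an adjusted p under 0.05 in limma. Among all genes tested, 26.7% were higher and 30.8% were lower, and either direction together came to 57.5%. The same shares of the 40 were 47.5%, 12.5% and 60.0%, so the set held about as many called genes as the background, with more of them higher. A rise of at least 1 on the log2 scale was called for 13 of the 40 (32.5%), against 11.0% of all genes tested, and no fall of that size was called, against 5.19%. The median change was 0.34 over the 40 and −0.08 over all genes tested. The SCI libraries lay wholly above the sham libraries for 21 of the 40 genes (30.7% of all genes tested) and wholly below for 7 (36.9%), and either way for 28 (67.6%). Without SCI replicate 2 the counts were again 19 higher and 5 lower, and without SCI replicate 3 they were 19 and 6. The count of lower genes was 3 without SCI replicate 1, without sham replicate 1, without sham replicate 2 and under median-ratio scaling. Summed over the 40 genes, the level was 3857, 3332 and 3463 FPKM in sham replicates 1, 2 and 3 and 6559, 5875 and 6051 in the SCI ones. As a share of the library total this was 0.453% to 0.531% in sham and 0.808% to 0.916% in SCI libraries.

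**Figure D1:**
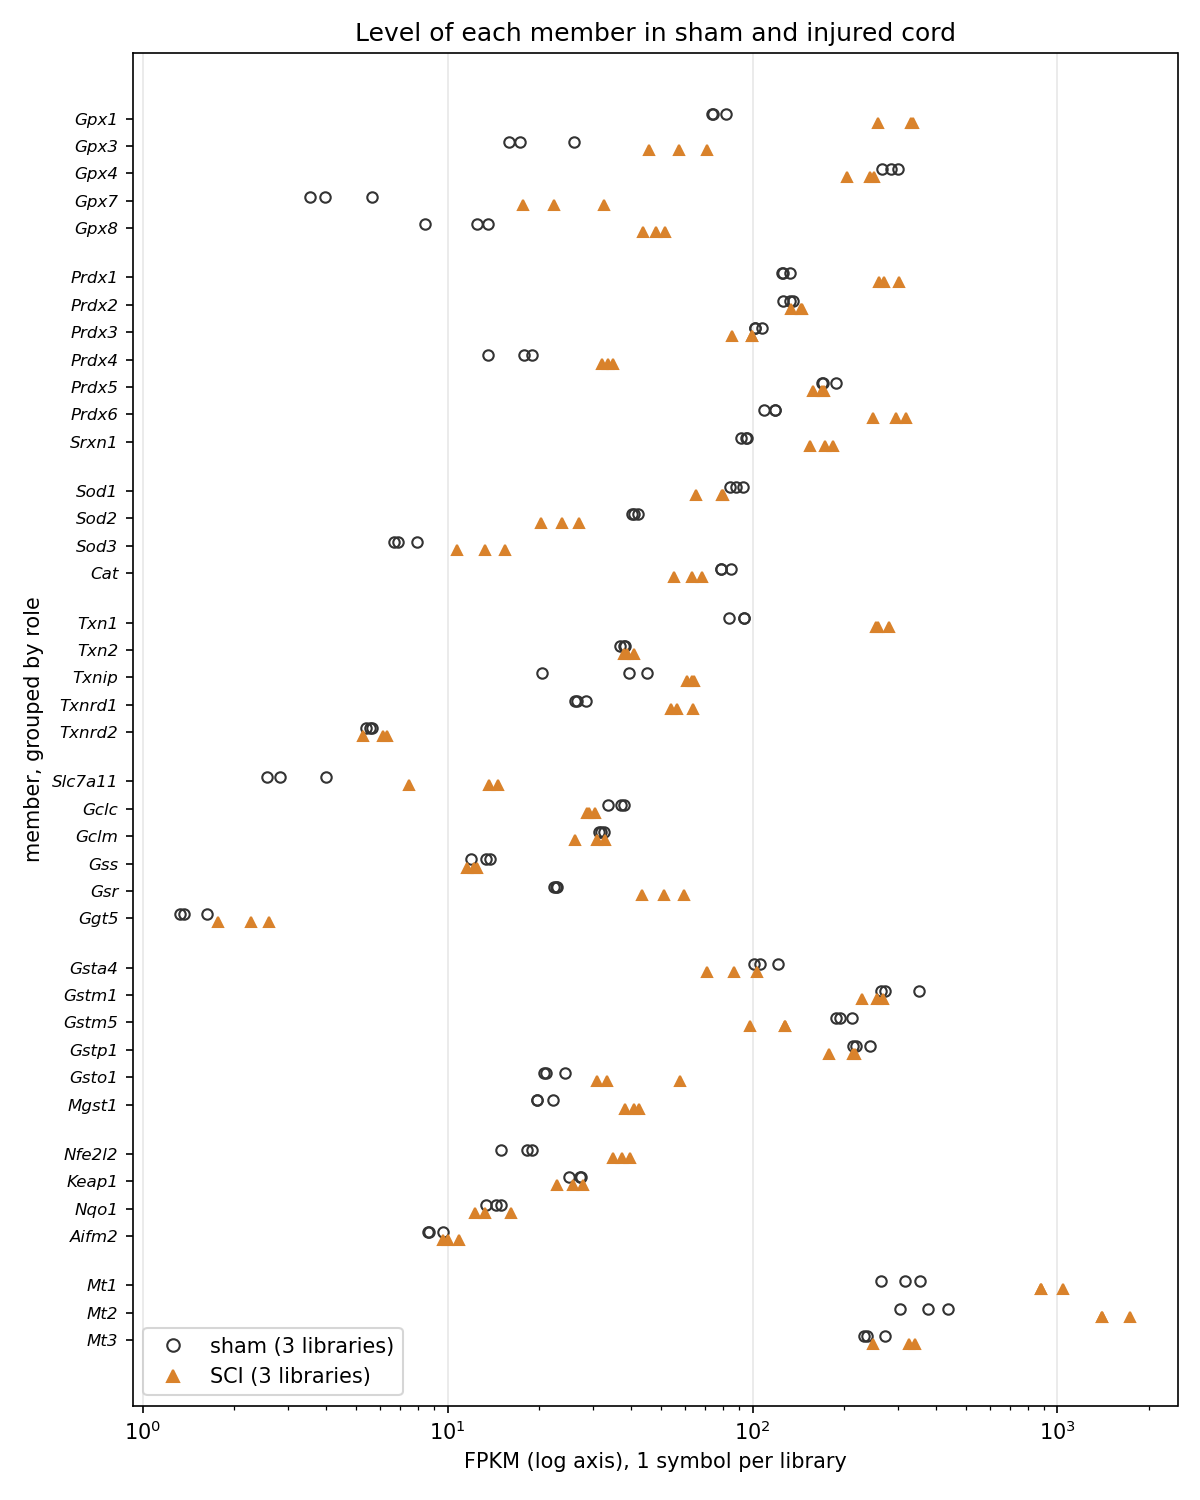
FPKM of each of the 40 genes on a log axis, grouped by role, with 1 open circle per sham library and 1 filled triangle per SCI library. The triangles lie wholly to the right of the circles for 21 genes and wholly to the left for 7, with Mt2 and Mt1 the most abundant by mean in both groups.

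**Figure D2:**
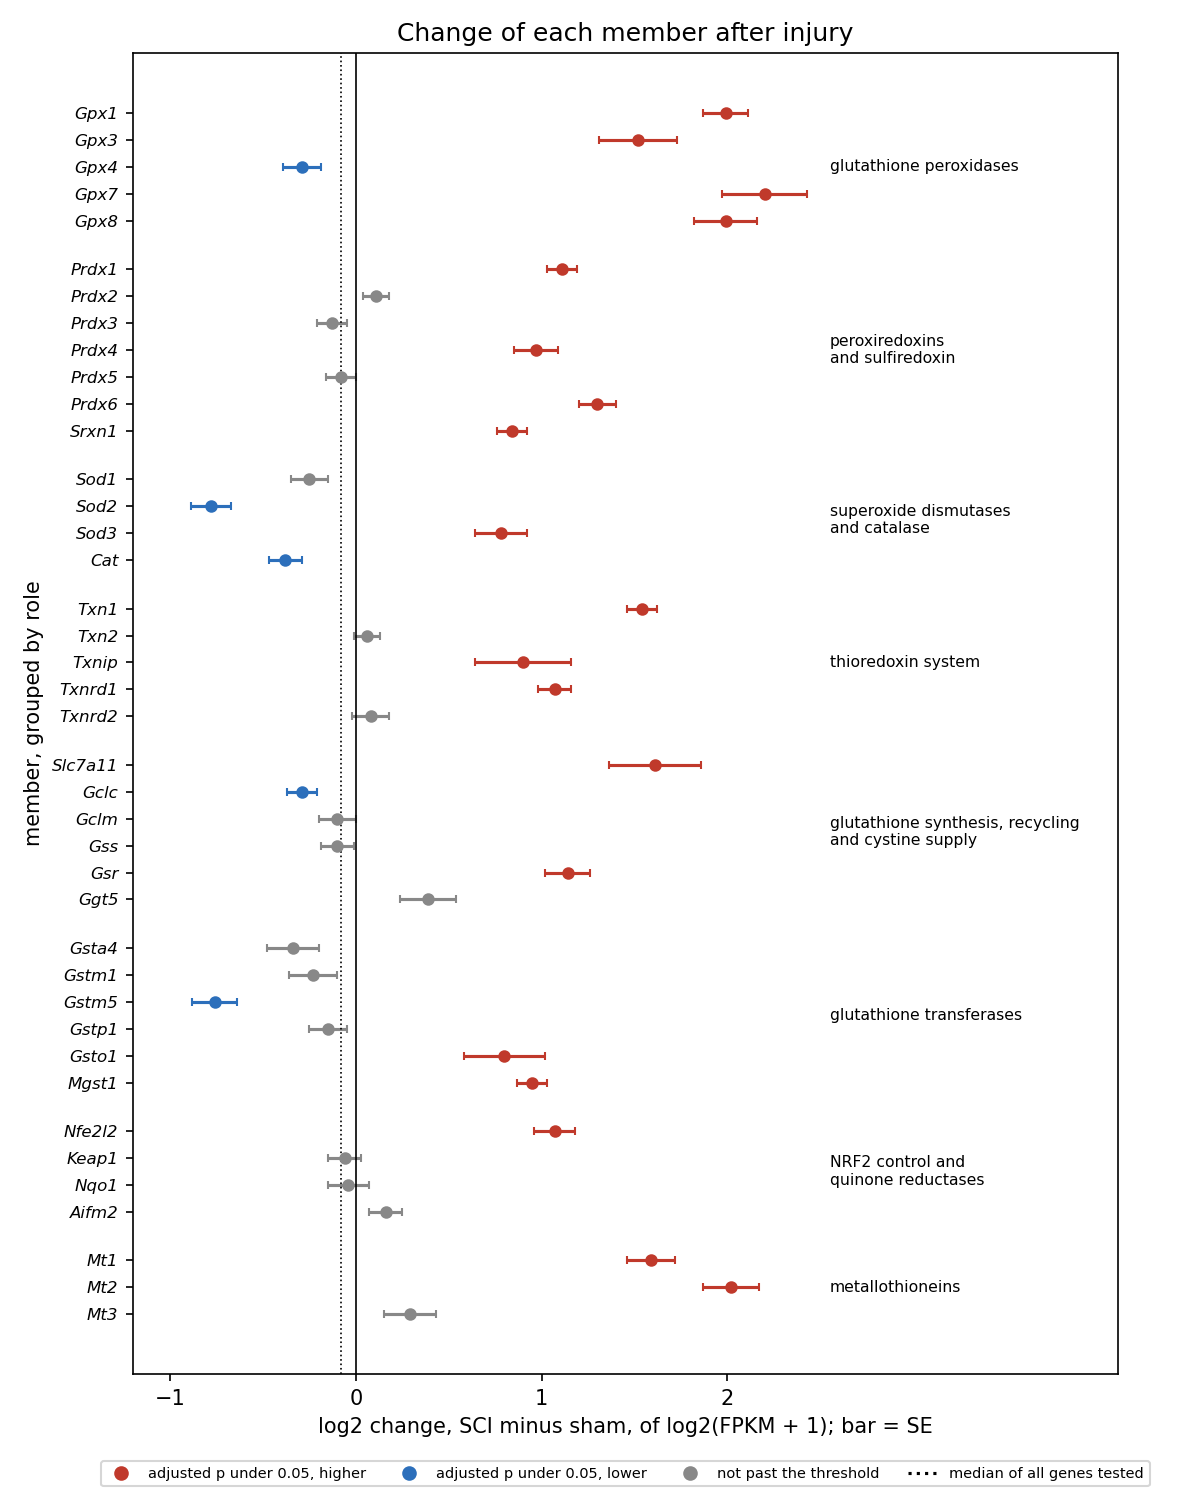
Log2 change (SCI minus sham, on log2(FPKM + 1)) of each of the 40 genes with its SE, coloured by whether the adjusted p was under 0.05; the dotted line is the median of all genes tested. The changes run from −0.78 for Sod2 to 2.20 for Gpx7.

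Of the metallothioneins, small cysteine-rich metal-binding proteins, Mt1 and Mt2 rose and were the most abundant products of the set after injury. Mt2 was at 438, 305 and 376 FPKM in sham replicates 1, 2 and 3 and at 1729, 1404 and 1400 in the SCI ones. Mt1, its close relative, was at 355, 263 and 317 in sham cord against 1042, 884 and 882 after injury. Every SCI library exceeded every sham library for both genes, and sham replicate 2 was the lowest of all 6. Mt2 rose 4.05-fold (log2 change 2.02, SE 0.15, adjusted p = 7.4e-05) and Mt1 rose 3.00-fold (1.59, SE 0.13, adjusted p = 1.0e-04). Mt3, the form enriched in neural tissue, was at 273, 237 and 232 FPKM in sham cord against 327, 249 and 342 after injury, and SCI replicate 2 fell inside the sham range. Mt3 did not pass (0.29, SE 0.14, adjusted p = 0.099), although it did with SCI replicate 2 left out (0.44, adjusted p = 0.0052) and under median-ratio scaling (0.39, adjusted p = 0.015). In the sham cord the mean levels of Mt2 (373 ± 66.7 FPKM, SD, n = 3), Mt1 (312 ± 46.0), Gstm1 (296 ± 49.3) and Gpx4 (284 ± 16.9) followed each other within their SDs. In the injured cord Mt2 (1511 ± 189) stood above Mt1 (936 ± 91.7), and both stood above Gpx1 (309 ± 43.6), the next in order. Mt2 alone made up 10.5% of the summed level of the 40 genes in sham and 24.5% in SCI libraries.

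The 3 metallothionein genes lie side by side on the plus strand of mouse chromosome 8 (GRCm38), Mt3 from 94152607 to 94154146, Mt2 from 94172664 to 94173568 and Mt1 from 94179082 to 94180327. The 200 bases before each RefSeq start (GRCm38.p6, plus strand) are shown because 2 of these neighbours rose and the third did not pass. Capitals mark the core of the metal response element, the site of the zinc-sensing factor MTF1, searched as TGCACNC or TGCGCNC on both strands. The windows are chr8:94178889-94179088 for Mt1, chr8:94172418-94172617 for Mt2 and chr8:94152407-94152606 for Mt3.
Mt1: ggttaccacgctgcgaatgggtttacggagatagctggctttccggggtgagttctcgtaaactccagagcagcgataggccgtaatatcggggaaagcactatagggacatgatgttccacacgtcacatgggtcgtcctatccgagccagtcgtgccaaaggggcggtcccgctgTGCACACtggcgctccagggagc
Mt2: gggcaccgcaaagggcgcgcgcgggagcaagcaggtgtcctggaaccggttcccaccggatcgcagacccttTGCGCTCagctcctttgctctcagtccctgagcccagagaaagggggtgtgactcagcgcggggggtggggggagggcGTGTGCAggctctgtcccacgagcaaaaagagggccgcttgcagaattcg
Mt3: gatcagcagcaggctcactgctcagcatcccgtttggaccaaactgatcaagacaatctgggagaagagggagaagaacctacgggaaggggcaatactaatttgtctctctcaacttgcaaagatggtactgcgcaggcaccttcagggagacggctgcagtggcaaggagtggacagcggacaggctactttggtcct

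Over the full window of 250 bases before to 50 after the start, the metal response core matched at 4 places for Mt2, 3 for Mt1 and 1 for Mt3. At least 1 match was present in 25.7% of 32851 such windows of all genes, and 2 or more in 7.11%. Matches are a description of the letters and were not tested for use. Among zinc genes outside the set, Mtf1 itself was at 8.44 ± 0.126 FPKM in sham and 8.19 ± 0.502 in SCI libraries and did not pass (−0.04). The zinc importers Slc39a1 (32.5 ± 2.98 to 120 ± 6.03 FPKM, log2 change 1.85), Slc39a14 (7.87 ± 0.516 to 24.1 ± 1.22, 1.50) and Slc39a8 (2.07 ± 0.0971 to 4.14 ± 0.542, 0.74) rose. Slc39a10, another importer, did not pass (33.4 ± 1.52 to 29.5 ± 3.06, −0.18, adjusted p = 0.15). The zinc exporter Slc30a1 fell (−0.55). Of the 6 zinc genes tested, 3 were higher, 1 was lower and 2 did not pass. Among all genes tested 26.7% were higher and 30.8% lower.

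Glutathione peroxidases rose, apart from Gpx4. Gpx1, the abundant selenium-containing enzyme of cytosol and mitochondria, was at 82.0, 74.1 and 73.6 FPKM in sham cord against 332, 336 and 259 after injury. Gpx7 and Gpx8, enzymes of the endoplasmic reticulum that lack selenocysteine, were far less abundant, Gpx7 at 3.53, 3.97 and 5.66 in sham cord against 22.3, 32.5 and 17.6 after injury. Gpx8 was at 13.6, 8.41 and 12.5 in sham cord against 48.1, 51.5 and 43.8 after injury. All 3 genes had SCI libraries wholly above the sham ones. Gpx7 rose 5.50-fold (log2 change 2.20, SE 0.23, adjusted p = 3.1e-04), Gpx8 4.16-fold (1.99, SE 0.17, adjusted p = 1.1e-04) and Gpx1 4.03-fold (1.99, SE 0.12, adjusted p = 2.7e-05). Gpx3, the secreted enzyme of plasma, was at 25.9, 15.9 and 17.2 FPKM in sham cord against 45.6, 57.5 and 70.7 after injury, with no overlap. It rose 2.94-fold (1.52, SE 0.21, adjusted p = 0.0010).

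Gpx4, which reduces lipid peroxides in membranes and guards against ferroptosis, was at 300, 284 and 266 FPKM in sham cord against 244, 205 and 249 after injury. The SCI libraries lay below the sham ones, by 1.22-fold on average (−0.29, SE 0.10, adjusted p = 0.039). The call was a narrow one. It ended without sham replicate 1 (−0.25), 2 (−0.29) or 3 (−0.33), with SCI replicate 1 left out (−0.33) and under median-ratio scaling (−0.19). Within a library, the ratio of Gpx1 to Gpx4 FPKM was 0.273, 0.261 and 0.276 in sham and 1.36, 1.64 and 1.04 in SCI libraries. It was below 1 in every sham and above 1 in every SCI library. Such a ratio does not depend on how libraries are scaled. Its exact permutation p was 0.10 (two-sided), the smallest that 3 against 3 libraries can give. In all, 8 ratios, chosen after the values were seen, were tested in this way, and 7 of them gave that p (0.11 after adjustment over the 8).

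Of the peroxiredoxins, thiol enzymes that reduce peroxides, most of them with electrons from thioredoxin, 3 of 6 rose. Prdx6, which reduces phospholipid peroxides and has phospholipase activity, was at 118, 109 and 118 FPKM in sham cord against 318, 249 and 294 after injury. Prdx1, a cytosolic form, was at 125, 126 and 133 in sham cord against 261, 301 and 270 after injury. Prdx4, the form of the endoplasmic reticulum, was at 17.8, 13.6 and 18.9 in sham cord against 34.8, 33.7 and 32.1 after injury. None of the 3 overlapped between groups. The log2 changes were 1.30 for Prdx6 (SE 0.10, adjusted p = 8.9e-05), 1.11 for Prdx1 (SE 0.08, adjusted p = 6.5e-05) and 0.97 for Prdx4 (SE 0.12, adjusted p = 7.0e-04). The other members of the family did not pass. Prdx2, a cytosolic form abundant in neurons and red cells, was at 131 ± 5.28 FPKM in sham and 141 ± 6.41 in SCI libraries (0.11, SE 0.07), and in SCI replicate 2, the library rich in haemoglobin, it was at 134, the lowest of the injured libraries. It passed under median-ratio scaling (0.20, adjusted p = 0.026). Prdx5, found in several compartments, was at 176 ± 10.6 and 166 ± 7.81 (−0.08, SE 0.08, and 0.018 under median-ratio scaling). Mitochondrial Prdx3 was at 102, 102 and 107 FPKM in sham cord against 85.5, 99.5 and 99.9 after injury, which lay just below the sham ones, but it did not pass (−0.13, SE 0.08, adjusted p = 0.23).

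Srxn1, the sulfiredoxin that restores over-oxidised peroxiredoxins, rose with a narrow spread. It was at 95.5, 95.9 and 91.6 FPKM in sham cord against 172, 155 and 183 after injury, which lay wholly above (1.80-fold, log2 change 0.84, SE 0.08, adjusted p = 2.2e-04).

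Superoxide dismutases and catalase went both ways. Mitochondrial Sod2 was at 42.2, 40.7 and 40.4 FPKM in sham cord against 23.8, 20.2 and 26.9 after injury. Secreted Sod3 was at 6.67, 7.92 and 6.85 in sham cord against 10.7, 15.4 and 13.2 after injury. Catalase (Cat), the peroxisomal enzyme, was at 79.1, 78.7 and 84.8 in sham cord against 63.2, 55.4 and 68.1 after injury. In each case the groups did not overlap, with Sod2 and Cat lower and Sod3 higher in the injured cord. Sod2 fell 1.74-fold (−0.78, SE 0.11, adjusted p = 9.7e-04), Cat fell 1.30-fold (−0.38, SE 0.09, adjusted p = 0.011) and Sod3 rose 1.83-fold (0.78, SE 0.14, adjusted p = 0.0027). Cytosolic Sod1, the most abundant dismutase, was at 92.7, 88.2 and 84.3 FPKM in sham cord against 79.1, 65.1 and 79.8 after injury. All SCI values lay below the sham ones, but Sod1 did not pass (−0.25, SE 0.10, adjusted p = 0.065). It did pass under quantile normalization (−0.21, adjusted p = 0.041) and when FPKM were rescaled without mitochondrial and haemoglobin genes (−0.25, adjusted p = 0.027). For Sod1, Sod2 and Cat, SCI replicate 2 was the lowest library, as it was for 7 of the 7 neuronal and 6 of the 6 oligodendrocyte markers. Among the injured libraries it was the lowest for 17 of the 40 genes, close to the 16 of SCI replicate 3, and the highest for 15. It was also the lowest for 64 of 109 pathway genes listed outside the 40. The part of neurons and oligodendrocytes in these falls was not tested.

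In the thioredoxin system the cytosolic pair rose and the mitochondrial pair did not pass. Txn1, cytosolic thioredoxin, was at 94.1, 83.5 and 93.6 FPKM in sham cord against 258, 281 and 253 after injury. Its reductase Txnrd1, a selenium-containing enzyme, was at 28.4, 26.2 and 26.5 in sham cord against 56.4, 63.8 and 54.0 after injury. Neither overlapped between groups. Txn1 rose 2.92-fold (log2 change 1.54, SE 0.08, adjusted p = 1.9e-05), the change with the smallest adjusted p of the 40 genes, and Txnrd1 rose 2.15-fold (1.07, SE 0.09, adjusted p = 9.3e-05). Mitochondrial Txn2 was at 37.6 ± 0.704 FPKM in sham and 39.2 ± 1.53 in SCI libraries (0.06, SE 0.07), and its reductase Txnrd2 at 5.53 ± 0.132 and 5.93 ± 0.558 (0.08, SE 0.10, and −0.020 under quantile normalization). The difference between the pairs was read from ratios within each library. Txn1 over Txn2 was 2.47, 2.27 and 2.47 in sham and 6.30, 7.24 and 6.69 in SCI libraries, and Txnrd1 over Txnrd2 was 5.08, 4.65 and 4.93 against 8.92, 10.4 and 10.2. Both ratios separated the groups (exact permutation p = 0.10 each, the smallest possible, and 0.11 after adjustment over the 8 ratios). The pairs were chosen after the values were seen, so this p is no independent support for the difference.

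Txnip, which binds thioredoxin and holds back its activity, was the most variable of the called genes among sham libraries. It was at 45.2, 20.4 and 39.2 FPKM in sham cord against 63.2, 64.3 and 61.0 after injury. The groups did not overlap, and sham replicate 2 lay far below the other sham libraries. The rise of 1.80-fold (0.90, SE 0.26, adjusted p = 0.021) did not pass without SCI replicate 1 (0.90, adjusted p = 0.052), without SCI replicate 2 (0.89, adjusted p = 0.051) or when genes were not filtered (adjusted p = 0.055). Without sham replicate 2 the change was 0.57. Relative to Txn1, Txnip was 0.480, 0.244 and 0.419 in sham and 0.245, 0.229 and 0.241 in SCI libraries, which overlapped (exact permutation p = 0.20).

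**Figure D3:**
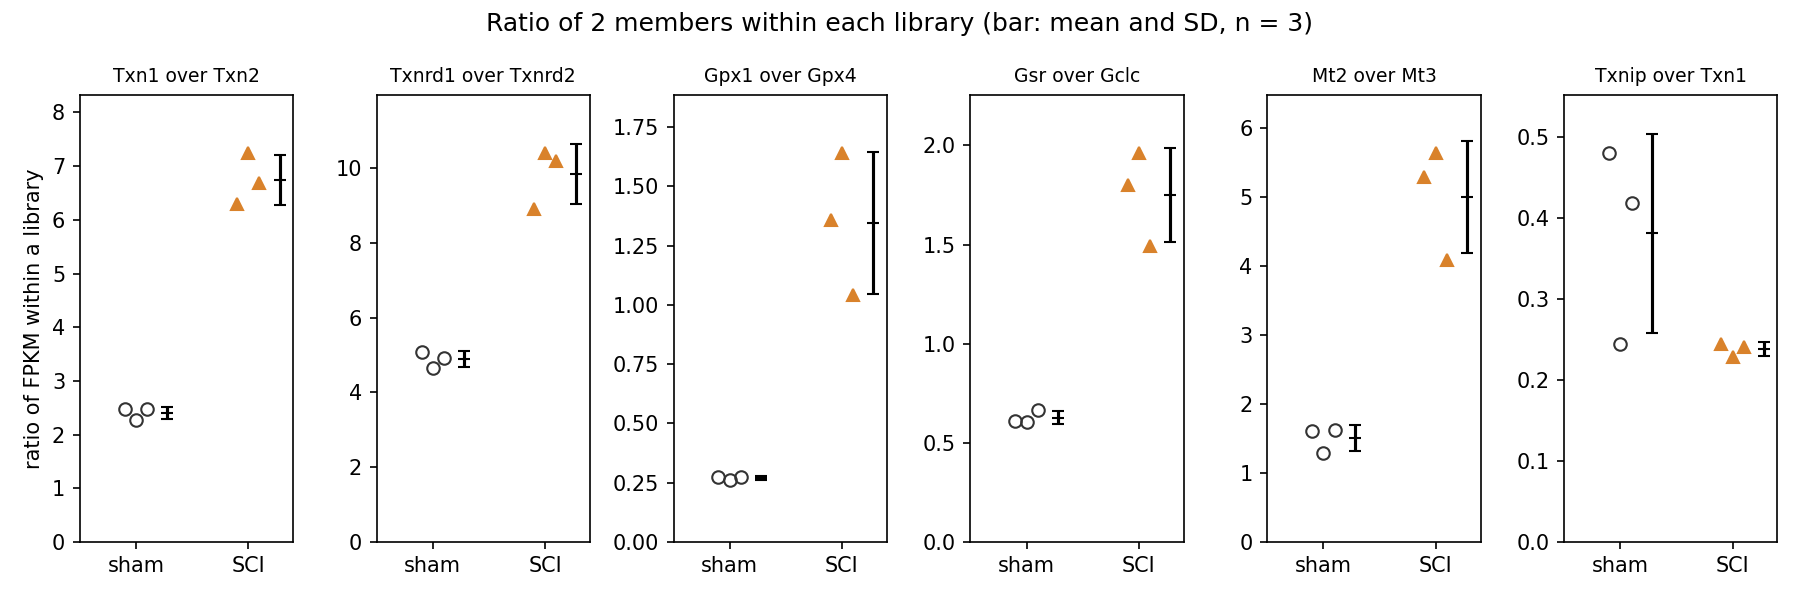
Ratio of FPKM of 2 genes within each library for 6 pairs, on linear axes from 0; circles are sham and triangles SCI libraries, and the bar beside them is the mean with its SD (n = 3). The ratios separate the groups for 5 pairs, for example 2.40 ± 0.115 against 6.74 ± 0.469 for Txn1 over Txn2, while Txnip over Txn1 overlaps. All pairs were chosen after the values were seen.

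For glutathione, the entry of cystine and the recycling step rose, and the synthetic enzymes did not. Slc7a11, the cystine importer of system xc-, was at 2.83, 2.56 and 3.98 FPKM in sham cord against 14.6, 13.6 and 7.46 after injury. Gsr, glutathione reductase, was at 22.6, 22.9 and 22.3 in sham cord against 51.4, 59.7 and 43.3 after injury. Every SCI library exceeded every sham library for both genes, and SCI replicate 3 was the lowest of the injured libraries. Slc7a11 rose 3.81-fold (log2 change 1.61, SE 0.25, adjusted p = 0.0016) and Gsr 2.27-fold (1.14, SE 0.12, adjusted p = 2.7e-04). Gclc, the catalytic subunit of the rate-limiting ligase, was at 37.1, 37.8 and 33.6 FPKM in sham cord against 28.6, 30.4 and 29.1 after injury. The fall of 1.23-fold (−0.29, SE 0.08, adjusted p = 0.015) ended under median-ratio scaling (−0.20, adjusted p = 0.099), without sham replicate 1 (−0.27) or 2 (−0.26) and without SCI replicate 1 (−0.27). Gclm, the modifier subunit of the same ligase (31.9 ± 0.706 FPKM in sham, 29.9 ± 3.40 in SCI), and Gss, glutathione synthetase (13.0 ± 1.00 and 12.1 ± 0.465), each had a log2 change of −0.10 and did not pass. Gsr over Gclc was 0.610, 0.605 and 0.664 in sham and 1.80, 1.96 and 1.49 in SCI libraries (exact permutation p = 0.10, adjusted 0.11). This pair too was chosen after the values were seen. Ggt5, which cleaves glutathione outside the cell, was low at 1.62, 1.37 and 1.33 FPKM in sham cord against 1.76, 2.60 and 2.26 after injury. It did not pass (0.39, SE 0.15, adjusted p = 0.058), though it did under median-ratio scaling (0.45, adjusted p = 0.045) and with SCI replicate 1 left out (0.49, adjusted p = 0.037).

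The partner genes of cystine entry were examined from a list outside the 40. Slc3a2, the heavy chain that pairs with the product of Slc7a11, went from 63.0 ± 1.27 to 105 ± 1.67 FPKM (log2 change 0.73, SE 0.06, adjusted p = 1.3e-04). Slc1a1, a neuronal transporter that also carries cysteine, went from 24.0 ± 0.461 to 12.2 ± 3.25 (−0.95, SE 0.18, adjusted p = 0.0036). Gadl1, a decarboxylase of related amino acids, rose from 0.283 ± 0.108 to 1.58 ± 0.315. Of 8 genes in that list 2 were higher and 1 was lower, against 26.7% and 30.8% of all genes tested. Cbs and Cth of the transsulfuration route did not pass (−0.22 and −0.26).

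Of 6 glutathione transferases, which attach glutathione to toxic products, 2 rose, 1 fell and 3 did not pass. Gstm5 was at 213, 194 and 188 FPKM in sham cord against 127, 98.1 and 128 after injury, and it fell 1.68-fold (−0.76, SE 0.12, adjusted p = 0.0016). Microsomal Mgst1 was at 22.2, 19.7 and 19.7 in sham cord against 40.7, 38.1 and 42.3 after injury, and it rose 1.97-fold (0.95, SE 0.08, adjusted p = 1.4e-04). The groups did not overlap for either gene. Gsto1, of the omega class, was at 24.3, 21.0 and 20.7 FPKM in sham cord against 33.2, 57.9 and 31.0 after injury. SCI replicate 2 stood well above the others. Among the injured libraries, 7 of 9 microglia and macrophage markers and 6 of 6 neutrophil markers were also highest in that library. So were 6 of 6 fibroblast and meningeal markers and 7 of 7 red blood cell markers, and 35 of all 70 markers listed. The part of any of these cell types in the level of Gsto1 was not tested. The rise of Gsto1 (0.80, SE 0.22, adjusted p = 0.018) ended without sham replicate 2 (0.77, adjusted p = 0.055) or 3 (0.76, adjusted p = 0.057), and it was 0.53 without SCI replicate 2.

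The most abundant transferases did not pass. Gstm1 was at 353, 271 and 264 FPKM in sham cord against 256, 229 and 268 after injury (−0.23, SE 0.13), and Gstp1 at 242, 218 and 213 against 214, 178 and 217 (−0.15, SE 0.10). Both overlapped between groups. Gsta4, which detoxifies aldehydes from lipid peroxidation, was at 121, 105 and 101 in sham cord against 86.8, 70.8 and 103 after injury. It did not pass (−0.34, SE 0.14, adjusted p = 0.079), except without SCI replicate 3 (−0.47, adjusted p = 0.019) and when FPKM were rescaled without mitochondrial and haemoglobin genes (−0.35, adjusted p = 0.047). Transferases have close copies, so how reads were shared between Gstm1 and its neighbours, or between Gstp1 and its copies, is uncertain.

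Of the NRF2 pathway genes in the set, Nfe2l2 rose and the others did not pass. Nfe2l2 was at 18.2, 15.0 and 18.9 FPKM in sham cord against 34.9, 39.7 and 37.4 after injury, which lay wholly above (2.15-fold, log2 change 1.07, SE 0.11, adjusted p = 2.3e-04). Keap1, its inhibitor, was at 26.5 ± 1.38 FPKM in sham and 25.4 ± 2.44 in SCI libraries (−0.06, SE 0.09, with 0.031 under median-ratio scaling and 0.010 without SCI replicate 2). Nqo1, a quinone reductase widely used as a readout of NRF2, was at 15.0, 13.3 and 14.4 FPKM in sham cord against 13.3, 12.3 and 16.1 after injury. The groups overlapped (−0.04, SE 0.11, adjusted p = 0.79, with 0.051 under median-ratio scaling and 0.039 without SCI replicate 2). Aifm2, which reduces coenzyme Q at membranes and limits ferroptosis, was at 9.65, 8.64 and 8.67 in sham cord against 10.0, 10.9 and 9.66 after injury. These did not overlap, though sham replicate 1 and SCI replicate 3 almost met, and Aifm2 did not pass (0.16, SE 0.09, adjusted p = 0.16). Genes known as NRF2 targets stood on both sides of the threshold: Srxn1, Txnrd1, Slc7a11, Prdx1 and Gsr were higher, while Nqo1 and Gclm did not pass and Gclc was lower.

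The 170 bases before the RefSeq start (GRCm38.p6) of Srxn1, Slc7a11 and Nqo1 are shown because they are known targets of the same factor, and the first pair rose while Nqo1 did not pass. Capitals mark the antioxidant response element core, searched as TGACNNNGC, TGAGNNNGC or TGATNNNGC on both strands. The windows are chr2:152105354-152105523 on the plus strand for Srxn1, chr3:50443614-50443783 on the minus strand for Slc7a11 and chr8:107403206-107403375 on the minus strand for Nqo1.
Srxn1: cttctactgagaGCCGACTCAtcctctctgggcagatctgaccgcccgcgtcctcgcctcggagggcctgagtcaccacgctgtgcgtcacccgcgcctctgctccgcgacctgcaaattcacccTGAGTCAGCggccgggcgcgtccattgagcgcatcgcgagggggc
Slc7a11: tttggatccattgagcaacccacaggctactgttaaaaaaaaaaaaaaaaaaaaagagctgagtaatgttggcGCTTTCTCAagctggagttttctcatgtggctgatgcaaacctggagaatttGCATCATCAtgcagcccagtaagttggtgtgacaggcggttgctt
Nqo1: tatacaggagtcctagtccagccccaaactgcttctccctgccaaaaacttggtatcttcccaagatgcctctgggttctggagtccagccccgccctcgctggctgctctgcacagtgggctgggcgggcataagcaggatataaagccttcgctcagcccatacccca

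A promoter window of 250 bases before to 50 after the start was found for 34 of the 40 genes. The antioxidant response core in any of the 3 spellings was present for 13 of these 34 (38.2%), against 37.3% of the 27025 genes with a window, so the share was close to the background. The single spelling TGACNNNGC was present for 9 of the 34 (26.5%), against 14.0% of all genes. It was found for Gclm and Sod1, which did not pass, and for Gstm5, which fell, as well as for Prdx1, Mgst1, Srxn1, Txnrd1, Nfe2l2 and Mt2, which rose. Genes with no match in any of the 3 spellings went every way. Among them Txn1, Gpx1, Gpx3 and Gpx8 rose, Sod2 and Cat fell, and Nqo1 and Keap1 did not pass. No match in a window says only that these letters are not in it.

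Beyond the set, Maff and Mafk were among the NRF2 genes that rose. They encode small MAF proteins, the partners with which NRF2 binds DNA. Maff went from 2.00 ± 0.460 to 16.5 ± 3.79 FPKM (log2 change 2.53) and Mafk from 7.62 ± 0.834 to 20.4 ± 2.25 (1.31). Mafg, the most abundant small MAF gene listed, was at 35.8 ± 2.23 in sham and 39.2 ± 2.95 in SCI libraries. It did not pass (0.13, adjusted p = 0.24) except under median-ratio scaling. Bach1, a repressor that competes for the same sites, also rose (1.06). Akr1b8, an aldo-keto reductase, went from 2.95 ± 0.318 to 58.4 ± 13.2 FPKM (3.89, adjusted p = 1.2e-05). Of 15 genes tested in that list, 6 were higher and 3 lower, against 26.7% and 30.8% of all genes tested. Nfe2l1 (−0.34) and Cbr1 (−0.75) were among the lower ones, and Sqstm1 (−0.35) did not pass.

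NADPH, on which both reductases draw, comes from several enzymes and pathways. Of 13 genes tested in that list 10 were higher and 1 lower, against 26.7% and 30.8% of all genes tested. The list also holds Pgls, Taldo1 and Tkt, enzymes of the pentose phosphate pathway that do not make NADPH themselves, and Pgls and Taldo1 are among the 10. Pgd, of the pentose phosphate pathway, went from 14.8 ± 1.01 to 42.1 ± 4.21 FPKM (log2 change 1.45, SE 0.10, adjusted p = 4.7e-05). Pgls, the enzyme before it, went from 7.45 ± 0.422 to 14.2 ± 0.894 (0.85), and G6pdx, the first enzyme of the pathway, rose by 0.78. Aldh1l2, a mitochondrial enzyme of folate metabolism, went from 3.82 ± 0.434 to 10.8 ± 2.52 (1.27). Me3 was lower (−0.61) and Tkt did not pass (0.12).

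Of 22 further glutathione genes tested, 12 were lower and 4 higher, against 30.8% and 26.7% of all genes tested. The calls on Gstm7, Gsto2, Gstz1 and Ggct ended without sham replicate 1, which left 8 lower. So did the call on Chac2, one of the 4 higher. Lancl1, which binds glutathione and is abundant in neurons, went from 43.6 ± 1.01 to 20.7 ± 4.67 FPKM (log2 change −1.07), and Mgst3 (−0.98) and Ggt7 (−0.71) fell too. Esd, which hydrolyses a glutathione conjugate of formaldehyde, went from 44.4 ± 0.841 to 115 ± 13.2 (1.35), and Gstm2 from 2.28 ± 0.367 to 5.93 ± 0.859 (1.08). Among the injured libraries, 17 of the 27 listed genes and all 7 neuronal markers were lowest in SCI replicate 2, and the part of neurons in these falls was not tested. Of 20 further thioredoxin-fold and methionine repair genes, 7 were higher and 6 lower, against 26.7% and 30.8% of all genes tested. Msrb1, a selenium-containing methionine sulfoxide reductase, went from 43.6 ± 0.831 to 93.1 ± 4.16 FPKM (1.08), Txndc17 from 46.4 ± 0.760 to 89.2 ± 4.35 (0.93) and Msrb3 from 6.01 ± 0.905 to 11.0 ± 1.60 (0.77).

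The selenium-containing enzymes need a dedicated machinery, whose genes mostly did not pass. Of 8 tested, none was higher and 2 were lower, against 26.7% and 30.8% of all genes tested. These counts depend on the scaling. Sephs2 (0.16), Secisbp2 (0.27) and Eefsec (0.28) passed as higher under median-ratio scaling. Scly (−0.18) and Sepsecs (−0.20) passed as lower under quantile normalization. The changes in brackets are those of the main fit. Pstk, a kinase in selenocysteine synthesis, went from 7.78 ± 0.788 to 4.47 ± 0.745 FPKM (−0.69). Selenop, the selenium carrier, went from 467 ± 45.3 to 371 ± 30.6 (−0.33, adjusted p = 0.028). The call on Selenop ended without sham replicate 1 (adjusted p = 0.094), sham replicate 3 (adjusted p = 0.085) or SCI replicate 1 (adjusted p = 0.08). It also ended when genes were not filtered (adjusted p = 0.071). Of the 5 selenoproteins among the 40, Gpx1, Gpx3 and Txnrd1 were higher, Gpx4 was lower and Txnrd2 did not pass. Of 6 tested genes linked to lipid peroxidation and ferroptosis, 4 were higher and 2 lower, beside the same shares of all genes. Alox5, a lipoxygenase of myeloid cells, went from 0.753 ± 0.192 to 4.54 ± 0.932 FPKM (1.65). Gch1, which feeds tetrahydrobiopterin synthesis, went from 1.10 ± 0.239 to 3.52 ± 0.0346 (1.11) and Lpcat3, a lipid-remodelling acyltransferase, from 12.4 ± 1.29 to 27.3 ± 2.02 (1.08). Over all 98 tested genes of these lists 36 were higher and 28 lower, against 26.7% and 30.8% of all genes tested. The median was 0.03, against −0.08 over all genes tested.

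**Figure D4:**
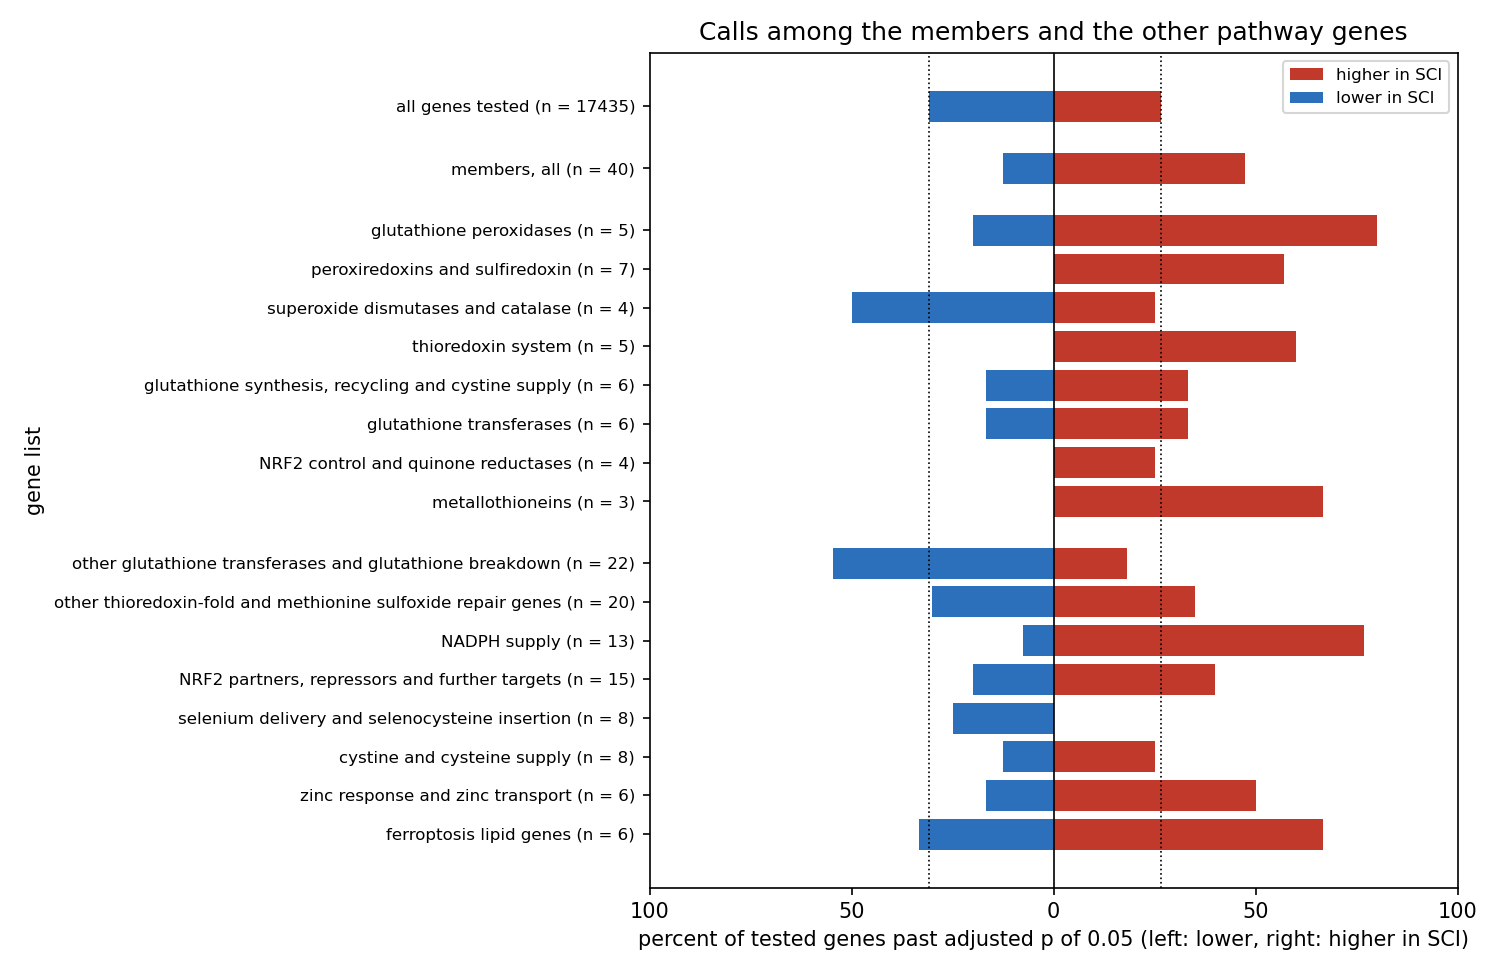
Percent of tested genes past an adjusted p of 0.05, higher to the right and lower to the left, for all genes tested, the 40 genes, their role groups and the other pathway lists; dotted lines mark the shares among all genes tested, 26.7% higher and 30.8% lower. Groups hold 3 to 22 genes, so a single gene moves a bar by several percent or more.

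Set side by side by place in the cell, an order chosen after the values were seen, the members of the endoplasmic reticulum (Gpx7, Gpx8, Prdx4) were higher in 3 of 3 cases, with log2 changes of 0.97 to 2.20. The secreted members Gpx3 and Sod3 were higher in 2 of 2. Of 7 mainly cytosolic members of the peroxide, superoxide and thioredoxin groups 5 were higher, and Prdx2 and Sod1 did not pass. Of the 4 mainly mitochondrial members none was higher, Sod2 was lower, and Prdx3, Txn2 and Txnrd2 did not pass. Some members of these groups were counted in no class. Among them, Gpx1, found in both cytosol and mitochondria, rose (1.99). Gpx4 (−0.29) and Cat (−0.38) were lower, and Prdx5 (−0.08) did not pass. Among all genes tested 26.7% were higher and 30.8% lower, and classes this small cannot be read closely against those shares. Gpx7 was highest in SCI replicate 2, where all 6 fibroblast and meningeal markers were highest among the injured libraries, and their part in the rise of Gpx7 was not tested. Without that library its change was 1.97 (adjusted p = 3.6e-04).

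Positions of several of the most changed genes follow, on GRCm38. Gpx1 (ENSMUSG00000063856) lies on chromosome 9 from 108338903 to 108340343, and Gpx3 (ENSMUSG00000018339) on chromosome 11 from 54902453 to 54910377, both on the plus strand. Gpx7 (ENSMUSG00000028597) and Txn1 (ENSMUSG00000028367) are minus-strand genes of chromosome 4, Gpx7 from 108400390 to 108406961 and Txn1 from 57943373 to 57956411. Prdx1 (ENSMUSG00000028691) is on the plus strand of the same chromosome, from 116685544 to 116700822. Gpx8 (ENSMUSG00000021760) lies on the minus strand of chromosome 13, from 113042753 to 113046410. Txnrd1 (ENSMUSG00000020250) is a plus-strand gene of chromosome 10 from 82833951 to 82897712, where it overlaps Gm38560 on the other strand. Slc7a11 (ENSMUSG00000027737) lies on the minus strand of chromosome 3 from 49892526 to 50443614. Of the 40 genes, 11 share bases with a neighbour that averaged 1 FPKM or more, Mt2 with Gm45774 among them. Whether quantification used the strand is not given in the sources used here, so reads may be shared there. Values are totals over each gene.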

How the data were processed

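Bulk RNA-seq libraries of sham and SCI cord (n = 3 each) were grouped by the labels, which do not say whether each library came from 1 animal, so p-values measure the spread between these libraries. The deposited values are FPKM per gene, 1 file per library, per the file headers. Per the submitters' processing notes, reads passed cutadapt 1.9, HISAT2 2.0.4, UMI-tools and StringTie 1.3.4d, and edgeR and DESeq2 are also named, with no role stated. The notes name mm9, but 91.6% of the gene IDs shared with GENCODE M21 had its GRCm38 coordinates, so positions are given as GRCm38. The values gave no whole-read step, so depth and counting error are unknown. The FPKM summed to 716215 to 734791 per library.

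The 17435 genes that reached 1 FPKM in 3 or more libraries were compared on log2(FPKM + 1), which understates changes of low genes, with limma 3.58.1 in R 4.3.3 using a mean-variance trend. The tests were two-sided, with Benjamini-Hochberg adjustment over all genes tested and a threshold of 0.05. Fold changes are ratios of mean FPKM, and a ± value is the SD. Within-library ratios were compared with exact permutation tests (scipy 1.17.1). The fit was checked on simulated data. The 40 genes and all lists were chosen with earlier results of these data known. Values in every library were planned for genes past the threshold with a log2 change of at least 1 or against their role group and for the most abundant of each role, and up to 3 genes with the largest changes from each pathway list; other names were added after values were seen. Promoter windows came from RefSeq (GRCm38.p6). Alternatives were other pseudocounts, filters and scalings, a fit without the trend, a replicate block and leaving out each library.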

Additional observations from a re-analysis of the deposited data

How the results depend on the processing

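Over 14 alternatives, 526 of 559 values of the 40 genes kept their direction and side of the threshold, 17 lost the call, 10 gained one and 6 changed sign, and 20 of the 24 calls held under all of them. The number higher was 18 to 22. The number lower was 5, against 3 under median-ratio scaling, 4 with no filter, no trend or the replicate block, 6 under quantile normalization and 7 after rescaling without mitochondrial and haemoglobin genes. Leaving out 1 library at a time gave 18 to 19 higher and 3 to 6 lower. The changes of sign were all in genes that did not pass: under median-ratio scaling Prdx5 was 0.018, Keap1 0.031 and Nqo1 0.051, under quantile normalization Txnrd2 was −0.020, and with 1 library left out Keap1 ran from −0.12 to 0.010 and Nqo1 from −0.14 to 0.039, both above 0 without SCI replicate 2. The cause was not tested. Median-ratio scaling moved the median of all genes tested by 0.081, and the other scalings by less. The replicate numbers gave no sign of pairing, since deviations of same-numbered libraries correlated at −0.01, −0.04 and 0.02 and 1 of 3 sham libraries correlated best with its own number. A replicate block gave 19 higher and 4 lower (Gpx4 −0.29, adjusted p = 0.063), and over all genes tested 4398 higher and 5045 lower. Depth is unknown, so no limit on low levels such as those of Ggt5 can be given.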

Other observations

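Nnt, which makes NADPH in mitochondria, was listed as 2 overlapping genes on the minus strand of chromosome 13, and the split between them differed from library to library. One, from 119335448 to 119408997, was at 8.05, 5.33 and 7.46 FPKM in sham cord against 6.64, 3.60 and 0.65 after injury. The other, from 119335528 to 119408952, was at 2.33, 6.73 and 5.65 in sham cord against 8.52, 6.76 and 22.25 after injury. Their sums were 10.38, 12.06 and 13.11 against 15.16, 10.36 and 22.90, which overlapped, so the value of either record alone is uncertain.

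Metallothionein genes also shifted relative to each other. Mt2 over Mt1 was 1.24, 1.16 and 1.18 in sham and 1.66, 1.59 and 1.59 in SCI libraries, and Mt2 over Mt3 was 1.61, 1.29 and 1.62 against 5.29, 5.64 and 4.09. Sod3 over Sod2 was 0.158, 0.195 and 0.170 in sham and 0.450, 0.761 and 0.492 in SCI libraries. None of these 3 ratios overlapped between groups (exact permutation p = 0.10, two-sided, the smallest that 3 against 3 allows). They were among the 8 chosen after the values were seen, and the p adjusted over these was 0.11.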
